A study of Mus musculus with 32 samples.

Results

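The 10 genes described here are feedback targets and effectors of canonical Wnt signalling in the developing mouse brain. They comprise 4 feedback inhibitors (Axin2, Nkd1, Rnf43 and Znrf3), a target transcription factor and a target receptor (Sp5 and Lgr5), and the 4 members of the TCF/LEF family of transcription factors (Lef1, Tcf7, Tcf7l1 and Tcf7l2). They were taken by symbol from the 55291 gene symbols that the 4 deposited count tables share, and all 10 were found in each table. Whole brains of C57BL/6J mice had been sequenced in 8 groups of 4 libraries, 32 in all. The groups were wild type (WT, Dhcr7+/+) and knockout (KO, Dhcr7-/-) at the embryonic stages E12.5, E14.5 or E16.5 (embryonic days) or at PND0, the day of birth. Dhcr7 encodes 7-dehydrocholesterol reductase, which makes cholesterol in its last synthetic step, and the KO mouse models Smith-Lemli-Opitz syndrome. The deleted part of Dhcr7, the sex and litter of the animals and whether each library came from 1 animal are not given in the sources used here, so p-values measure only the spread between these libraries.

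In canonical Wnt signalling, a Wnt ligand joins a Frizzled receptor to an LRP co-receptor and thereby stops a cytoplasmic destruction complex from degrading β-catenin, which then binds TCF/LEF factors on DNA. Several of the genes it switches on dampen it again: Axin2 is a scaffold of the destruction complex, Nkd1 binds Dishevelled, and Rnf43 and Znrf3 are membrane ubiquitin ligases that remove Frizzled receptors. In the embryonic brain the pathway patterns the midbrain, the thalamus and the hem of the cortex, and it sustains dividing progenitors.

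The libraries held 13868087 to 28318857 counts, so that 3 counts correspond to 0.106 to 0.216 CPM (counts per 1000000 counts of the library). Dhcr7 was lower in every KO library than in every WT library of its stage. Its KO minus WT log2 fold change lay between -2.63 and -1.64 (adjusted p at most 0.00824, edgeR's quasi-likelihood test). In the label check against tissue markers, the summed level of 12 Hox genes of hindbrain and spinal cord was 0 to 15.9 CPM, and 3 to 12 of the 12 were at 0 in a library. The series describes whole brains, while these Hox genes were at or near 0. Markers of the thalamus, midbrain, cortex, choroid plexus and meninges were present at every stage. Some libraries stood apart from their group. WT replicate 1 of E12.5 had the highest hindbrain sum (15.9 CPM) and the lowest cortex sum (356 CPM). WT replicate 1 of E16.5 had a midbrain sum of 21.3 CPM against 114 to 184 in its group. KO replicate 4 of PND0 had a midbrain sum of 14.1 CPM against 88.1 to 151 in its group. KO replicate 1 of E12.5 carried 5.64% of its counts on 1 ribosomal RNA gene, against at most 0.376% in the other libraries of that stage. For WT replicate 1 of E16.5 this share was 3.75%, against at most 0.626% in the other E16.5 libraries.

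**Figure D1:**
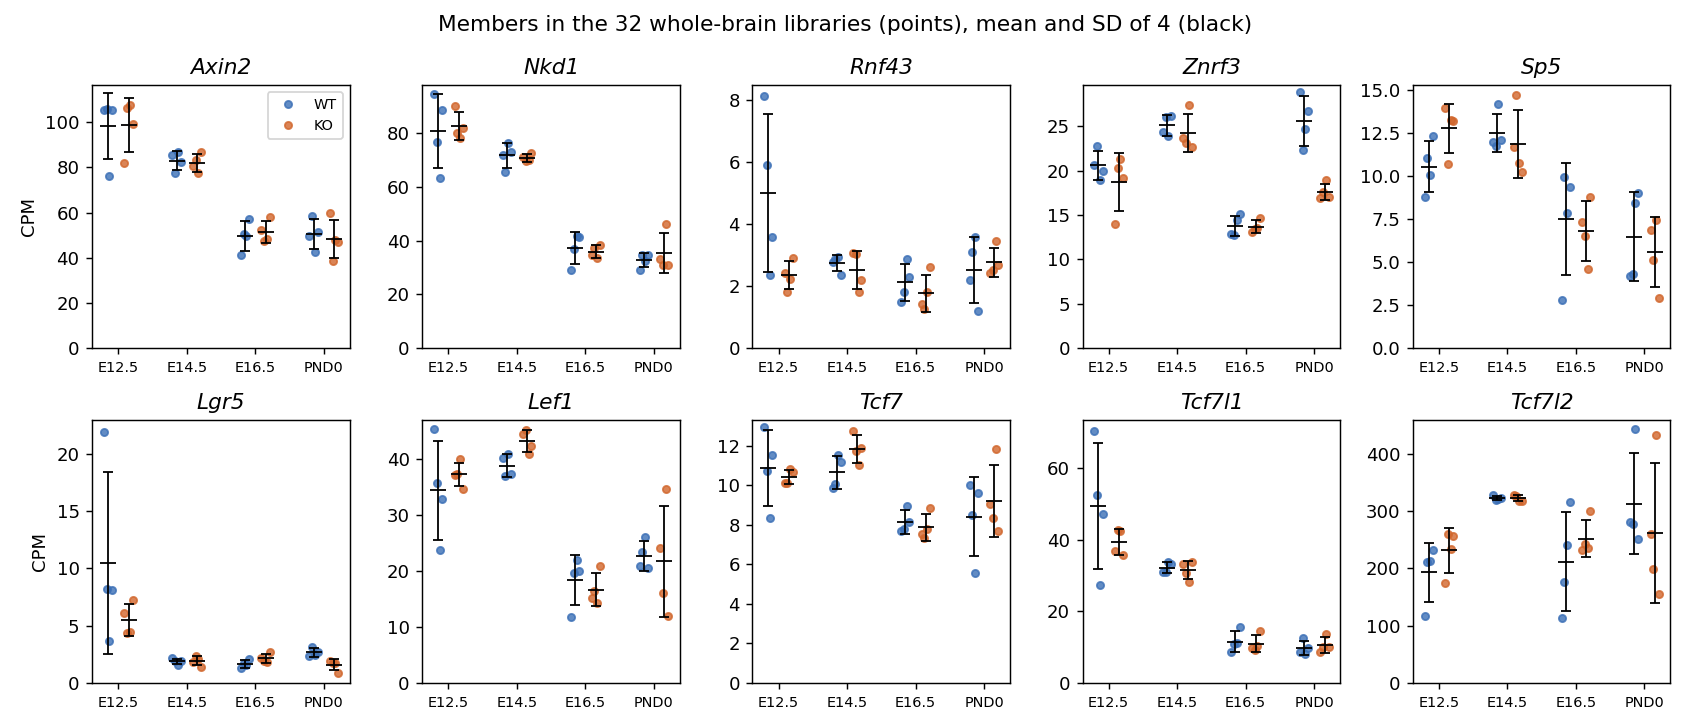
Level of each of the 10 genes in CPM (y axis, linear from 0) by stage (x axis), with 1 point per library for WT (blue) and KO (orange) and the mean and SD of the 4 libraries in black. Axin2, Nkd1, Lef1 and Tcf7l1 stand lower at E16.5 than at E14.5 in both genotypes, and at PND0 the 4 KO libraries of Znrf3 (16.9 to 18.9 CPM) lie below the 4 WT libraries (22.3 to 28.9 CPM).

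To order the genes by level, WT CPM were divided by the length of the longest annotated transcript in kilobases. Tcf7l2 was the highest at each stage, at 52.0 ± 13.9, 87.1 ± 0.991, 57.0 ± 23.3 and 84.3 ± 23.7 CPM per kb (SD, n = 4) from E12.5 to PND0. Its lowest WT library lay above the highest WT library of every other member at each stage. Axin2 followed at 23.0 ± 3.42 CPM per kb at E12.5 and 11.9 ± 1.54 at PND0, and then Nkd1 at 19.8 ± 3.39 and 8.0 ± 0.641. Rnf43 and Lgr5 were the lowest throughout, at 1.16 ± 0.593 and 2.18 ± 1.66 CPM per kb at E12.5 and at 0.585 ± 0.244 and 0.557 ± 0.0773 at PND0. Many neighbours in the order were not separated, among them Axin2 and Nkd1 up to E16.5. Of the 9 pairs of neighbours in the order, 7, 3, 5 and 5 overlapped in their library ranges from E12.5 to PND0 in turn.

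**Figure D2:**
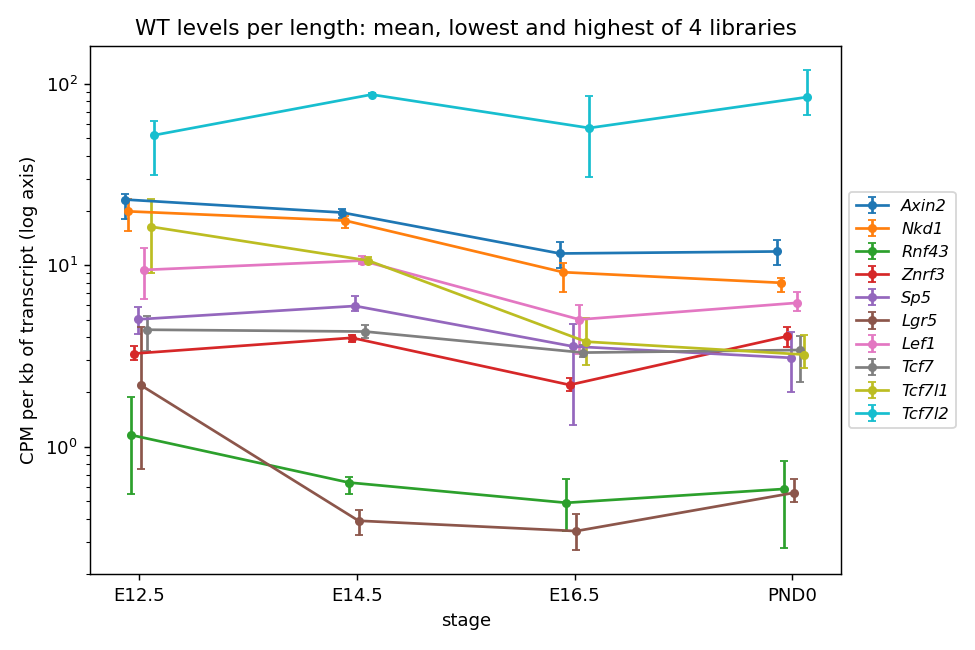
Mean WT level of each gene in CPM per kb of its longest transcript (y axis, log scale) at the 4 stages (x axis), with lines from the lowest to the highest of 4 WT libraries. Tcf7l2 runs above all other members, Rnf43 and Lgr5 run below them, and most curves step down between E14.5 and E16.5.

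Over time in WT brain, 6 of the 10 members (Axin2, Nkd1, Znrf3, Lef1, Tcf7 and Tcf7l1) fell between E14.5 and E16.5. All 10 log2 fold changes were negative, with a median of -0.72 against 0.01 over all 17674 genes tested. The 6 passed an adjusted p of 0.05 in edgeR's quasi-likelihood test, none rose, and Sp5, Tcf7l2, Rnf43 and Lgr5 did not pass (adjusted p 0.0848 to 0.548). Among all genes tested, 57.5% passed this threshold and 28.2% passed it as lower. For 8 of 10 members every E16.5 library lay below every E14.5 library, against 28.2% of all genes, and 53.1% did not overlap in either direction. The steps before and after were mixed. From E12.5 to E14.5, 2 members rose and 4 fell, where 57.8% of all genes passed, 27.3% as higher and 30.5% as lower. The libraries did not overlap for 3 members, 2 higher and 1 lower, against 53.6%, 27.2% and 26.4% of all genes. From E16.5 to PND0, 2 rose and none fell, where 53.2% of all genes passed and 26.0% as higher. The same 2 did not overlap, against 48.0% of all genes in either direction and 24.4% as higher. Consecutive steps share a WT group, and each stage has a count table of its own, so stage and table cannot be told apart. In whole brain, fewer cells of a type and less RNA per cell cannot be told apart either. Several marker sums were lower over this step too, with no overlap between the WT groups and no marker at 0. The sum of 7 midbrain markers went from 255 to 274 CPM at E14.5 to 21.3 to 184 CPM at E16.5, and that of 7 thalamus and habenula markers from 268 to 293 CPM to 100.3 to 204 CPM. The sum of 5 markers of dividing cells went from 774 to 844 CPM to 436 to 580 CPM, and that of 6 neural progenitor markers from 1656 to 1829 CPM to 1237 to 1397 CPM. Within these lists, 2 midbrain markers and 2 thalamus and habenula markers passed as lower and none as higher. All 5 markers of dividing cells passed as lower. Of the progenitor list 5 markers passed as lower and 1 as higher. Other sums were higher at E16.5, also with no overlap and no marker at 0. That of 6 neuron markers went from 3967 to 4211 CPM to 5268 to 5928 CPM. The sum of 7 markers of the oligodendrocyte lineage went from 133 to 140 CPM to 168 to 206 CPM. All 6 neuron markers passed as higher, while of the oligodendrocyte lineage 4 passed as higher and 1 as lower. What part these cell types had in the fall of the members was not tested.

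Among the feedback inhibitors, Axin2 (chr11:108920349-108950783, plus strand, GRCm38) stood at 85.3, 77.3, 86.6 and 82.5 CPM in the 4 WT libraries of E14.5 and at 41.2, 50.5, 49.5 and 57.3 CPM at E16.5. The groups did not overlap, and Axin2 fell to 60.7% of its E14.5 level (log2 fold change -0.72, SE 0.08, adjusted p = 2.16e-06). At PND0 its WT libraries read 49.6, 58.5, 42.6 and 51.4 CPM, which overlaps E16.5 (log2 fold change 0.00, adjusted p = 0.98). Nkd1 (chr8:88521354-88594884, plus strand) went from 72.0, 65.4, 76.4 and 73.1 CPM at E14.5 to 29.2, 37.0, 41.9 and 41.2 CPM at E16.5. Again there was no overlap, and the log2 fold change of Nkd1 was -0.92 (SE 0.0975, adjusted p = 3.26e-06).

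Znrf3 (chr11:5276324-5444847, minus strand) moved at every step. Its WT libraries held 20.6, 22.8, 19.0 and 19.95 CPM at E12.5 and 24.4, 26.0, 23.9 and 26.2 CPM at E14.5. They then held 12.9, 12.8, 14.47 and 15.1 CPM at E16.5 and 28.9, 22.3, 24.6 and 26.7 CPM at PND0. Neighbouring stages did not overlap. Znrf3 rose by 0.26 on the log2 scale (SE 0.0796, adjusted p = 0.017), fell by 0.84 (SE 0.0856, adjusted p = 4.9e-07) and rose by 0.87 (SE 0.116, adjusted p = 2.3e-05). Without WT replicate 4 of E12.5, the adjusted p of the first of these steps was 0.0513.

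Rnf43 (chr11:87662722-87735539, plus strand) was low, at 8.14, 5.91, 2.36 and 3.60 CPM in the WT libraries of E12.5 and 2.77, 2.87, 2.94 and 2.37 CPM at E14.5. Replicates 1 and 2 of E12.5 were high and replicate 3 lay within the E14.5 range. The fall of Rnf43 from E12.5 to E14.5 passed the threshold (log2 fold change -0.89, SE 0.34, adjusted p = 0.0467), as did that of Axin2 (-0.27, SE 0.103, adjusted p = 0.0464). Neither call was firm: Axin2 was called in 1 and Rnf43 in 5 of 13 alternatives. With every library kept, Axin2 had adjusted p of 0.0564 with RLE scaling, 0.0647 with DESeq2, 0.078 with no filter on low counts and 0.0562 in the fit of all 32 libraries, and Rnf43 had 0.0678 with no filter. Without E12.5 replicate 1, the fold change of Rnf43 was -0.54 (adjusted p = 0.0946), and without E12.5 replicate 2 or any 1 of the E14.5 libraries its adjusted p was 0.0839 to 0.111. Axin2 kept its call without E12.5 replicate 3 (-0.36, adjusted p = 0.000162) and lost it without any 1 of the other 7 libraries (adjusted p 0.0718 to 0.126). Nkd1 was called in this step without E12.5 replicate 3 (-0.29, adjusted p = 0.00684) and not with it (-0.20, adjusted p = 0.164).

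Sp5 (chr2:70474923-70477729, plus strand) encodes a zinc finger factor that β-catenin and TCF/LEF switch on. Among the 8 members with a promoter window, it was the 1 with a match to the TCF/LEF core motif. The search was for CTTTGAT and CTTTGAA on both strands from 250 bases before to 50 after each RefSeq gene start (GRCm38.p6). The stretch around the match lies upstream of the gene, at chr2:70474789-70474855 on the plus strand, and is shown with the motif in capitals.

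Sp5: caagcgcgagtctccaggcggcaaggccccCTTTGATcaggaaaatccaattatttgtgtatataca

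The motif begins 104 bases before the gene start (-104). Promoter windows were held for 8 of the 10 members, in 14 windows, and 1 of these windows matched. Znrf3 and Lgr5 had no window and were not searched. Among all 32851 windows 8.65% matched, and among all 27025 genes with a window 9.88% had a match. In WT brain Sp5 was at 12.01, 11.8, 14.2 and 12.1 CPM at E14.5 and at 2.77, 9.94, 7.89 and 9.38 CPM at E16.5. No E16.5 library reached the E14.5 range, and replicate 1 was the lowest. The log2 fold change of -0.71 (SE 0.313) missed the threshold (adjusted p = 0.0848). Without replicate 1 of E16.5, the library with the low midbrain sum and high ribosomal RNA share, it was smaller and passed (-0.46, adjusted p = 0.00399). At PND0 the libraries ranged from 4.19 to 9.01 CPM.

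Lgr5 (chr10:115450311-115587780, minus strand), a receptor for R-spondins, was at 21.9, 8.16, 3.63 and 8.10 CPM in the WT libraries of E12.5 and at 2.14, 1.88, 1.56 and 1.91 CPM at E14.5. All 4 earlier libraries were higher, with replicate 1 far above the rest. Lgr5 fell by 2.50 on the log2 scale (SE 0.515, adjusted p = 0.00335). Without E12.5 replicate 1 the log2 fold change was -1.84 (adjusted p = 6.87e-05). From E16.5 to PND0 the WT libraries went from 1.29, 1.70, 1.55 and 2.04 CPM to 2.38, 3.17, 2.40 and 2.74 CPM, without overlap. This rise (log2 fold change 0.67, SE 0.248, adjusted p = 0.0346) was kept in 4 of 13 alternatives. It was lost without replicate 1, 2 or 3 of E16.5 or replicate 2 or 4 of PND0 (adjusted p 0.0538 to 0.0886). With every library kept, Lgr5 also lost it with no filter on low counts (adjusted p = 0.101), with DESeq2 (0.0563) and in the fit of all 32 libraries (0.0806).

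Within the TCF/LEF family, the repressor-like Tcf7l1 (chr6:72626378-72789254, minus strand) went down over both embryonic steps. Its WT libraries read 70.5, 52.6, 27.5 and 47.2 CPM at E12.5, 31.1, 30.9, 33.7 and 33.3 CPM at E14.5, and 8.58, 10.8, 11.1 and 15.6 CPM at E16.5. The last of these steps, with no overlap, left 36.2% of the E14.5 level (log2 fold change -1.46, SE 0.135, adjusted p = 9.15e-07). Over the step before, the groups overlapped (-0.65, SE 0.242, adjusted p = 0.0483). That call of Tcf7l1 held in 3 of 13 alternatives, among them without E12.5 replicate 3 (-0.83, adjusted p = 0.000564). With every library kept, it was lost with RLE scaling (adjusted p = 0.0511) and with no filter on low counts (0.145). It was lost without any 1 of the other 7 libraries, with adjusted p of 0.063 to 0.113 and a fold change of -0.41 without E12.5 replicate 1.

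Lef1 (chr3:131110471-131224356, plus strand), itself a Wnt target, was at 40.3, 36.9, 40.9 and 37.3 CPM in WT at E14.5 and at 11.8, 19.6, 21.9 and 20.1 CPM at E16.5. It fell to 48.0% of the earlier level (log2 fold change -1.06, SE 0.15, adjusted p = 0.000135), and replicate 1 of E16.5 was the lowest. From E12.5 to E14.5 its change of 0.15 did not pass (adjusted p = 0.483) but did without E12.5 replicate 1 (0.32, adjusted p = 0.0344). Tcf7 (chr11:52252371-52283014, minus strand), the family member best known from T cells, changed least among the called members. It went from 9.87, 10.1, 11.5 and 11.2 CPM at E14.5 to 7.68, 7.78, 8.97 and 8.17 CPM at E16.5 (log2 fold change -0.37, SE 0.112, adjusted p = 0.0106).

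Tcf7l2 (chr19:55741820-55933654, plus strand) encodes the factor that marks postmitotic thalamic neurons. It stood at 117, 212, 212 and 232 CPM in WT at E12.5 and at 328, 320.3, 321 and 324 CPM at E14.5, a rise of 0.72 on the log2 scale (SE 0.181, adjusted p = 0.00912). The E14.5 libraries differed little from each other. At E16.5 they spread from 114 to 316 CPM (114, 176, 242 and 316), all below E14.5. The log2 fold change of -0.59 (SE 0.303) did not pass (adjusted p = 0.145) except without replicate 4 of E16.5 (-0.85, adjusted p = 0.0373). At PND0 the WT libraries were at 282, 277, 444 and 251 CPM, overlapping E16.5.

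Between KO and WT brains most members had small estimated fold changes. In edgeR's quasi-likelihood test no member passed an adjusted p of 0.05 at E12.5, E14.5 or E16.5, and 1, Znrf3, passed at PND0, where it was lower in KO. Among all genes tested, 0.0177%, 0.527%, 0.0462% and 1.44% passed at these 4 stages, and 1.03% passed as lower in KO at PND0. At an unadjusted p under 0.05, 1, 1, 0 and 2 members passed in the same order, against 4.7%, 8.73%, 11.5% and 18% of all genes. DESeq2 called 0, 0, 0 and 1 members. It gave no adjusted p to Rnf43 and Lgr5 at E14.5, E16.5 and PND0. At E16.5 it also gave none to Znrf3, Sp5, Lef1, Tcf7 and Tcf7l1, as only 6632 of 34362 genes had one. Those members could not be called there. The median KO minus WT log2 fold change over the 10 was -0.05, -0.01, -0.07 and -0.07, beside 0.00 over all genes at each stage. The estimated log2 fold change lay within 0.3 of 0 for 7, 10, 9 and 8 of the 10 members. Equality was not tested, and the median SE over the members was 0.162, 0.0698, 0.184 and 0.243. Larger differences of single members are therefore not excluded. This holds at E14.5 too, where the SE was 0.241 for Lgr5, 0.207 for Rnf43 and 0.102 for Tcf7. The libraries of the 2 genotypes did not overlap for 1 member at E14.5 (Lef1, higher in KO) and 2 at PND0 (Znrf3 and Lgr5, both lower). For Lef1 the nearest libraries were at 40.88 CPM in KO and 40.87 CPM in WT, an order that depended on the scaling. Over all genes 4.77% and 11.9% did not overlap at these stages, 2.01% at E14.5 with KO higher and 5.84% at PND0 with KO lower. At E12.5 and E16.5, where 2.53% and 6.38% of all genes did not overlap, all 10 members overlapped.

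**Figure D3:**
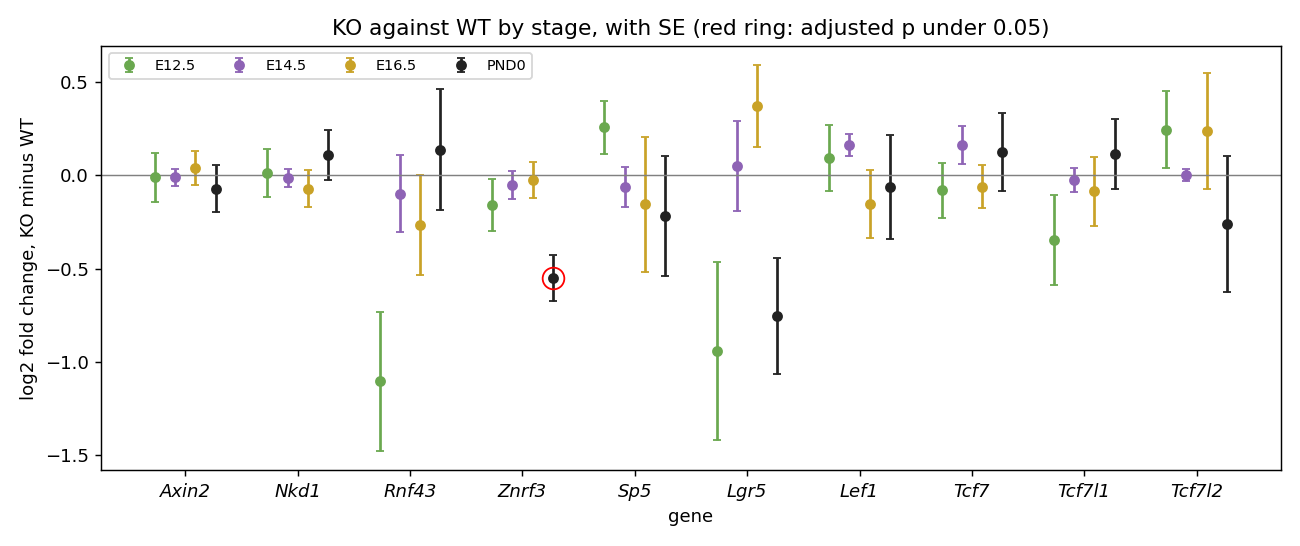
KO minus WT log2 fold change of each gene (x axis) at the 4 stages (colours), with bars of 1 SE and a red ring where the adjusted p was under 0.05. The ring is on Znrf3 at PND0 (-0.55); the widest bar is that of Lgr5 at E12.5 (SE 0.478).

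Znrf3 held 28.9, 22.3, 24.6 and 26.7 CPM in the 4 WT libraries of PND0 and 16.9, 17.6, 18.9 and 17.0 CPM in the 4 KO libraries. Every KO library was lower than every WT library. The KO mean was 17.6 CPM and the WT mean 25.6 CPM, so that KO had 68.4% of the WT level (log2 fold change -0.55, SE 0.123, adjusted p = 0.0392). At the earlier stages the genotypes overlapped, with 20.6 and 18.7 CPM in WT and KO at E12.5, 25.1 and 24.2 CPM at E14.5, and 13.8 and 13.7 CPM at E16.5.

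The direction at PND0 was the same in 17 of 17 other settings and the call was kept in 8 of them. Among the losses were those without any 1 of WT replicates 1, 3 or 4 or KO replicates 1, 2 or 4 (log2 fold change -0.57 to -0.48, adjusted p 0.0654 to 0.128). So were those with offsets for transcript length (-0.40, adjusted p = 0.146) and with the share of ribosomal RNA as a covariate (-0.47, adjusted p = 0.714). Both quantities moved with genotype at PND0. Genes called lower in KO had a median transcript of 7057 nt and genes called higher 2209 nt, against 3182 nt over the genes tested; that of Znrf3 is 6311 nt. The ribosomal RNA gene held 1.80% to 2.79% of the counts in WT and 1.16% to 2.09% in KO. The sum of 6 choroid plexus markers, none of them at 0, was 307 to 611 CPM in WT and 608 to 967 CPM in KO. Sums that overlapped more were those of 6 neural progenitor markers (876 to 932 and 921 to 1249 CPM) and of 6 haemoglobin genes of blood, 1 or 2 of them at 0 (191 to 251 and 222 to 2223 CPM). Their part in the Znrf3 difference was not tested. With the level of thalamus and midbrain markers as a covariate the value was -0.55 (adjusted p = 0.0403).

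**Figure D4:**
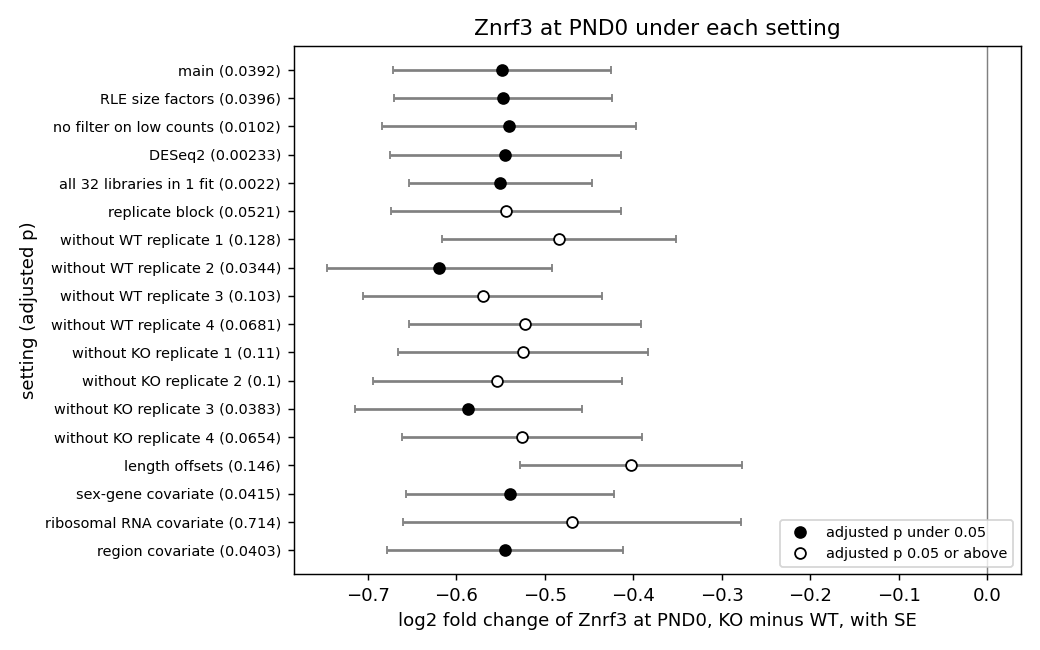
KO minus WT log2 fold change of Znrf3 at PND0 with 1 SE (x axis) in the reported fit and 17 other settings (y axis, adjusted p in brackets), filled where the adjusted p was under 0.05. All values lie between -0.62 and -0.40, while the adjusted p runs from 0.0022 to 0.714.

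The related ligase Rnf43 did not pass at any stage. At E12.5 its KO libraries held 2.43, 1.81, 2.23 and 2.91 CPM, and WT replicate 3 (2.36 CPM) lay among them while WT replicates 1, 2 and 4 (8.14, 5.91 and 3.60 CPM) lay above. The log2 fold change was -1.11 (SE 0.374, unadjusted p = 0.0153, adjusted p = 0.875). Without WT replicate 1, the library with the high hindbrain sum, it was -0.76. At the later stages the fold changes of Rnf43 were -0.10, -0.27 and 0.14. The target receptor Lgr5 at E12.5 was at 6.08, 4.36, 4.41 and 7.21 CPM in KO, within the WT range (log2 fold change -0.94, SE 0.478, adjusted p = 0.875). Without WT replicate 1 the value was -0.28. At PND0 the KO libraries of Lgr5 read 1.94, 1.74, 1.75 and 0.890 CPM, below all WT libraries (2.38 to 3.17 CPM). The log2 fold change of -0.76 (SE 0.312, unadjusted p = 0.0281) did not pass (adjusted p = 0.211), and it was -0.56 without KO replicate 4, the library with the low midbrain sum.

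The scaffold Axin2, the most used readout of the pathway, was at 98.1 ± 14.6 CPM in WT and 98.8 ± 11.8 CPM in KO at E12.5 (SD, n = 4), and at 50.5 ± 6.55 and 48.3 ± 8.59 CPM at PND0. Its fold changes over the 4 stages were -0.01 (SE 0.133), -0.01 (SE 0.0466), 0.04 (SE 0.092) and -0.07 (SE 0.126) on the log2 scale. Nkd1 gave 0.01 (SE 0.127), -0.01 (SE 0.0484), -0.07 (SE 0.0993) and 0.11 (SE 0.133). KO replicate 3 of PND0 (46.2 CPM) lay above the other 7 libraries of Nkd1, which ranged from 29.0 to 34.6 CPM, and without it the last of these values was -0.05. Sp5 gave 0.26 (SE 0.142), -0.06 (SE 0.107), -0.15 (SE 0.361) and -0.22 (SE 0.322), with overlapping libraries at each stage.

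Among the TCF/LEF factors, Lef1 at E14.5 was at 40.3, 36.9, 40.9 and 37.3 CPM in WT and 44.5, 45.3, 40.9 and 42.3 CPM in KO. The lowest KO library (replicate 3, 40.88 CPM) and the highest WT library (replicate 3, 40.87 CPM) were separated in the second decimal only. Without TMM scaling their order turned (700 of 17274016 counts in KO and 890 of 21896526 in WT). KO had 1.12 times the WT level (log2 fold change 0.16, SE 0.0572, unadjusted p = 0.00693), which did not pass (adjusted p = 0.325). At the other stages Lef1 gave 0.09, -0.15 and -0.06 with overlapping libraries. Tcf7 gave -0.08, 0.16, -0.06 and 0.12, and Tcf7l1 gave -0.35, -0.03, -0.09 and 0.12. For Tcf7l2 the value at E14.5 was 0.00 with an SE of 0.0298, the tightest of all member values. At the other stages it was 0.24 (SE 0.207), 0.24 (SE 0.312) and -0.26 (SE 0.367). Over the 17 other settings these uncalled values of Tcf7l2 ran from 0.06 to 0.34 at E12.5, from 0.02 to 0.50 at E16.5 and from -0.87 to -0.04 at PND0, and Lef1 at PND0 ran from -0.65 to 0.14. At PND0 the KO libraries of Tcf7l2 alone spread from 155 to 434 CPM.

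Whether the KO minus WT difference itself changed with stage was tested over all 32 libraries. No member passed in edgeR's F test of the interaction (adjusted p 0.183 to 0.967), against 0.0256% of all 19541 genes tested. At an unadjusted p under 0.05 in this edgeR test, 2 members passed, Znrf3 and Lgr5, beside 13.5% of all genes. Their adjusted p was 0.183 and 0.317 with edgeR. Without KO replicate 1 of E12.5, the library rich in ribosomal RNA, the adjusted p of Znrf3 was 0.0164. In that setting 797 of 20007 genes passed, against 5 of 19541 with all libraries. The difference of Znrf3 at PND0 was thus not shown to differ from that at the embryonic stages with all libraries included.

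Of 89 other genes of the pathway in 7 lists, 85, 83, 83 and 81 were tested at the 4 stages. At E12.5, E14.5 and E16.5 none passed, and at PND0 2 passed, both lower in KO, a share of 2.47% of the 81 beside 1.44% of all genes in either direction and 1.03% as lower. Their median log2 fold change at PND0 was -0.05. Wnt5a, a ligand best known from non-canonical signalling, was at 27.0, 30.2, 31.7 and 36.9 CPM in WT and at 24.1, 21.2, 18.2 and 22.1 CPM in KO at PND0. The groups did not overlap, as for 5.84% of all genes with KO lower (log2 fold change -0.57, SE 0.128, adjusted p = 0.0405). Btrc, the ubiquitin ligase subunit that recognises phosphorylated β-catenin, was at 61.5, 67.8, 72.8 and 63.8 CPM in WT and 50.3, 54.0, 36.8 and 44.9 CPM in KO (log2 fold change -0.52, SE 0.112, adjusted p = 0.0338). Without any 1 of the 8 libraries, the adjusted p of Wnt5a was 0.0577 to 0.125, and in the fit of all 32 libraries it was 0.224 (SE 0.275), where that of Btrc was 0.00319. Btrc stayed past the threshold without KO replicate 2 or 3 and had adjusted p of 0.0525 to 0.131 without any 1 of the others. Transcript length offsets gave adjusted p of 0.142 for Wnt5a and 0.077 for Btrc, and the ribosomal RNA covariate gave 0.724 for both.

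The ligand list held Wnt5a as its 1 call among 14 tested ligands and had a median of -0.21 at PND0. The destruction complex and cytoplasmic list held Btrc among 15 and had a median of -0.03. In the other lists nothing passed at PND0 in the reported fit, and the gene with the smallest p in each is named here. Among 16 receptors and co-receptors (median -0.11) it was Lgr4, an R-spondin receptor related to Lgr5 (-0.49, adjusted p = 0.132). Among 5 tested ligand processing genes and R-spondins (median 0.20) it was Rspo2 (0.32, adjusted p = 0.249). Among 13 secreted or surface inhibitors (median -0.08) it was Draxin, an axon guidance protein that also inhibits Wnt signalling (0.30, adjusted p = 0.107). Among 9 nuclear cofactors (median 0.07) it was the Groucho-type corepressor Tle2 (0.35, adjusted p = 0.176), and among 9 other reported targets (median -0.06) the cortical factor Emx2 (0.45, adjusted p = 0.138). Some of these passed in other settings. With no filter on low counts the adjusted p was 0.0109 for Lgr4, 0.0161 for Draxin and 0.0133 for Tle2. Lgr4 also passed without KO replicate 3 (0.0452), and Tle2 without KO replicate 4 (0.0495) and with the region markers as a covariate (0.0292). Among all genes, 1091 of 33525 passed with no filter and 494 of 17420 with the region covariate. Without KO replicate 3 it was 219 of 17806, and without KO replicate 4 it was 239 of 17882. In the reported fit 250 of 17420 passed.

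Several members varied between libraries of the same group with markers of brain regions or cell types. This was examined after the values had been seen, as deviations from the 8 group means over all 32 libraries, for 130 pairs of a member and a marker list, with 100000 permutations within groups and adjustment over the 130. By both coefficients 4 pairs passed an adjusted p of 0.05, and by 1 coefficient 6 more did. Lef1 followed the thalamus and habenula markers (Pearson's r = 0.841, permutation p = 0.00032, adjusted p = 0.0192; Spearman's rho = 0.801, permutation p = 0.00037, adjusted p = 0.0316). Without the 2 libraries farthest from the median, r was 0.742. Within stages of 8 libraries, r was 0.208, 0.413, 0.932 and 0.966 from E12.5 to PND0. Sp5 followed the midbrain markers (r = 0.848, permutation p = 0.00026, adjusted p = 0.0192; rho = 0.735, permutation p = 0.00073, adjusted p = 0.0316), with r = 0.724 without the 2 farthest libraries. Its r within stages was 0.056, 0.153, 0.963 and 0.828. Tcf7l2 gave r = 0.731 with the thalamus and habenula markers (permutation p = 0.00131, adjusted p = 0.0341) and rho = 0.591 (permutation p = 0.00655, adjusted p = 0.0851). Its r was 0.583 without the 2 farthest libraries and 0.068, 0.462, 0.841 and 0.844 within stages. For these 3 pairs r was thus lower at E12.5 and E14.5 than at the later stages.

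The other 2 pairs that passed by both were Lef1 with the pituitary markers, of which 3 of 8 averaged 1 CPM or more, and Rnf43 with 10 endothelial markers. Lef1 gave r = 0.709 (permutation p = 0.00059, adjusted p = 0.0192) and rho = 0.624 (permutation p = 0.00112, adjusted p = 0.0364), with r = 0.505 without the 2 farthest libraries and 0.422, -0.094, 0.879 and 0.78 within stages. Rnf43 gave r = 0.501 (permutation p = 0.00049, adjusted p = 0.0192) and rho = 0.565 (permutation p = 0.00067, adjusted p = 0.0316), with r = 0.561 without the 2 farthest libraries and 0.692, -0.014, 0.573 and 0.61 within stages. By 1 coefficient, Nkd1 passed with the thalamus and habenula markers (r = 0.65, permutation adjusted p = 0.0412; rho adjusted p = 0.0556) and with the pituitary markers (rho = 0.591, permutation adjusted p = 0.0371). Axin2 passed with the thalamus and habenula markers (rho = 0.605, permutation adjusted p = 0.0371). Tcf7l2 passed with the midbrain markers (rho = 0.604, permutation adjusted p = 0.0371) and, in the opposite direction, with those of the oligodendrocyte lineage (rho = -0.592, permutation adjusted p = 0.0431).

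Some libraries stood apart in these levels, given here as summed CPM of the markers and CPM of the members. WT replicate 1 of E16.5 had the lowest thalamus and habenula sum of its stage (100.3 CPM) and the lowest WT values of Lef1 (11.8 CPM), Sp5 (2.77 CPM) and Tcf7l2 (114 CPM) there. KO replicate 4 of PND0 had a thalamus and habenula sum of 111 CPM, Lef1 at 12.03 CPM, Sp5 at 2.92 CPM and Tcf7l2 at 155 CPM, each the lowest of its stage. WT replicate 3 and KO replicate 3 of PND0 had the highest thalamus and habenula sums of the stage (211 and 214 CPM), the highest Tcf7l2 values (444 and 434 CPM) and low cortex sums (941 and 883 CPM). As mean log2 deviations, used for the relations, the thalamus and habenula markers were at 0.115 in this WT library and 0.198 in WT replicate 2. They were at 0.537 in this KO library. WT replicate 1 of E16.5 also had the highest ribosomal RNA share of its stage (3.75%). What these libraries share beyond these levels was not tested.

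**Figure D5:**
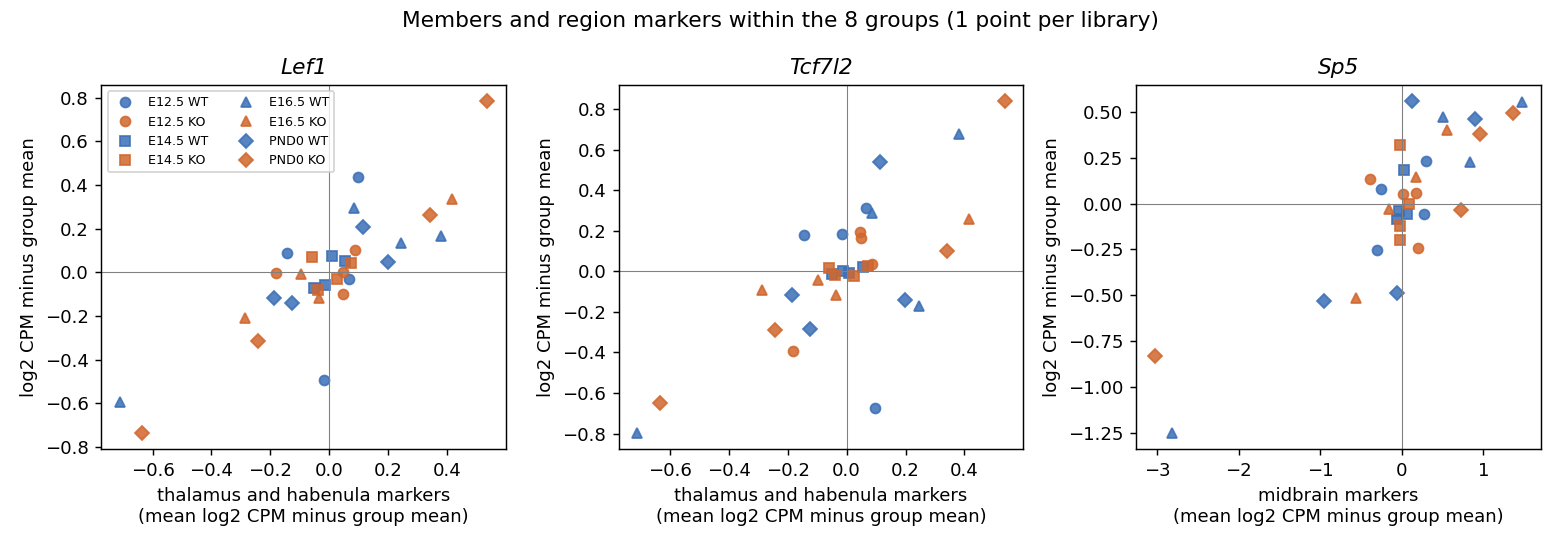
Deviation of Lef1, Tcf7l2 and Sp5 from their group mean (y axes, log2 CPM) against that of a set of region markers (x axes, mean log2 CPM), with 1 point per library, shapes for stages and colours for genotype. The points of E16.5 and PND0 spread along the diagonal, and those of E14.5 stay near the centre.

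Over all 32 libraries, the genes whose log2 CPM were most like those of the members are given as a description, since libraries of a stage share their level. Nkd1 and Tcf7l1 were close to each other (r = 0.975), and the closest to Nkd1 was Cdt1 (r = 0.98), a DNA replication licensing factor. For Tcf7l1 the closest were Yap1 (r = 0.983), a growth-promoting coactivator, Palld (0.981) and Ptbp1 (0.977). Axin2 was most like Sox13 (0.969), Crb2 (0.96) and Tcf7l1 (0.958). Znrf3 ran with Tlk1 (0.916), Hip1 (0.913) and Dcaf5 (0.912), and Lgr5 with Plod2 (0.92), Lpar1 (0.916) and Itga9 (0.911). After the group means were removed, other genes led. Sp5 was then most like Barhl1 (0.901), Irx2 (0.895) and Shox2 (0.884), and Tcf7l2 was most like Lhx9 (0.882), Fibcd1 (0.862) and Otx2 (0.858). Of these, Barhl1, Lhx9 and Otx2 stand in the cerebellum, thalamus and midbrain marker lists. Lef1 was then most like Hs3st3b1 (0.874), the Wnt receptor gene Fzd10 (0.872) and Col2a1 (0.867), and among members Nkd1 and Lef1 deviated together (r = 0.809).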

How the data were processed

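The libraries were polyA-enriched and read as 150 bp paired ends, per the labels' protocols. The authors deposited raw counts per gene symbol, 1 table per stage. The submitters' processing notes name HISAT2, SAMtools, featureCounts, DESeq2 and the mm10 build, with no versions or roles, and whether counting used the strand is not given in the sources used here. Exons of 3 members (Axin2, Lef1 and Tcf7l1) overlap a gene on the opposite strand, whose reads could then not be told apart from theirs.

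From the deposited counts, each comparison was fitted over all genes with edgeR 4.0.16 in R 4.3.3. The filter was filterByExpr with a minimum count of 10 and a total of 15, scaling was by TMM, and the robust quasi-likelihood test was adjusted by Benjamini-Hochberg with a threshold of 0.05. All 10 members passed the filter in every fit. KO was compared with WT within each stage (8 libraries), WT stages were compared in sequence, and the change of the KO effect with stage was tested over 32 libraries. The fits were also run on simulated counts with known fold changes. These were drawn independently for each gene, so variation shared between genes was not simulated. Levels are CPM with TMM over all 32 libraries, and log2 CPM use a prior count of 2. Positions and lengths come from GENCODE release M21 (GRCm38), which matched 53561 symbols, 375 of them through a RefSeq synonym. Alternatives were RLE scaling, no filter on low counts, DESeq2 1.42.0, all 32 libraries in 1 fit, a replicate block, 1 library left out, and, for KO comparisons, transcript length offsets and a covariate of sex-linked genes. Covariates of the ribosomal RNA share (of the gene CT010467.1) and of region markers were chosen after seeing the data. No 2 libraries of a group agreed within counting noise.

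The members and the gene lists were chosen with earlier results of these data known. All members are named, and of the other Wnt lists each gene that passed in a KO comparison or, where a list had none, its gene with the smallest p. The genes most alike were the 3 with the highest correlation. The floor of 3 counts covers counting error only, while SD and SE include the spread between libraries.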

Additional observations from a re-analysis of the deposited data

Results flagged for a closer look

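The highest and the lowest library were checked by Dixon's criterion in each of the 80 sets of 4 libraries of a member. It divides the gap to the nearest library by the range of all 4, and marks about 1 in 20 sets by chance. It marked 4. Axin2 was at 76.3 CPM in WT replicate 3 of E12.5, below the other 3 libraries at 105 to 106 CPM. Nkd1 was at 46.2 CPM in KO replicate 3 of PND0, above the others at 30.9 to 33.3 CPM. Sp5 was at 14.2 CPM in WT replicate 3 of E14.5, above the others at 11.8 to 12.1 CPM. Tcf7l2 was at 444 CPM in WT replicate 3 of PND0, above the others at 251 to 282 CPM.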

How the results depend on the processing

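Over 80 member results and their 1420 alternative values, 1360 kept their direction and side of the threshold or, if uncalled, moved by less than 1 SE. Another 49 lost a call, 7 gained one, 4 uncalled values moved further and none of the called values reversed. Only a called result can lose a call, and most of the 80 results were uncalled. Values to which DESeq2 gave no adjusted p were counted as uncalled. Calls were kept in 8 of 17 alternatives for Znrf3 in KO at PND0 and in 4 of 13 for Lgr5 from E16.5 to PND0. From E12.5 to E14.5 they were kept in 1 of 13 for Axin2, 5 for Rnf43, 3 for Tcf7l1 and 12 for Znrf3. Every other call was kept throughout. KO values changed sign in 57 of 680 cases, all of them for uncalled results with a reported size of at most 0.217. The count of 1 member called at PND0 was 0 with the replicate block, with length offsets and with the ribosomal RNA covariate, and 0 to 1 with 1 library left out. Of WT members called between E12.5 and E14.5 (6), the number was 3 with no filter on low counts, 3 with the replicate block and 3 to 7 with 1 library left out. Between E16.5 and PND0 (2) the number was 1 with no filter, DESeq2, all 32 libraries in 1 fit or the replicate block, and 1 to 2 with 1 library left out. In the test of change with stage, 0 became 1 without KO replicate 1 of E12.5 and was 0 to 1 over the left-out libraries. Without that KO library 797 of all 20007 genes passed.

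Same-numbered libraries did not deviate together in every pair (lowest correlation -0.276, highest 0.303), and at most 3 of 4 correlated best with their own number. Under the replicate block the adjusted p of Znrf3 at PND0 was 0.0521 (log2 fold change -0.54). Over all genes, the 3, 94, 8 and 250 called in KO at the 4 stages became 2 to 52, 4 to 146, 3 to 233 and 2 to 1205 in other settings, and 1 to 5, 52 to 155, 3 to 14 and 35 to 263 with 1 library left out. The 5 genes whose KO effect changed with stage became 1 to 11 and 0 to 797. The median SE of the members' KO minus WT values was 0.162, 0.0698, 0.184 and 0.243 in order of stage. By this median E14.5 gives the most precise values, and Rnf43 and Lgr5 rest on a few CPM.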
